A study of Mus musculus with 6 samples.

Results

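The mitochondrial chaperones and proteases described here are 10 genes, *Hspd1*, *Hspe1*, *Hspa9*, *Trap1*, *Lonp1*, *Clpp*, *Clpx*, *Yme1l1*, *Afg3l2* and *Phb2*. They were taken as the rows of the count table whose gene symbol is one of these names, and all 10 had a row among the 17145 genes of the table. The mice were FS6KD, on a mixed genetic background that includes C57BL/6J, with a gene trap that lowers *Ndufs6*, a subunit of respiratory chain complex I, mainly in the heart. The labels give the sex as female and the cell type as cardiomyocytes, and they give no age. Areas of fresh-frozen heart sections were assigned to an Atf3 high or an Atf3 low group by immunostaining for Atf3 protein. The paper places the areas of both groups within Atf3-positive clusters, so Atf3 low here means a weaker signal and not an absent one. The areas' RNA was collected by photo-isolation chemistry, in which light uncages primers inside a chosen area so that only cDNA made there is amplified. Each group held 3 CEL-seq2 libraries, and each captured cDNA molecule was counted by its unique molecular identifier (UMI). Both groups carry the *Ndufs6* knockdown, and no wild-type heart was analysed here, so every comparison is between areas of diseased hearts. The study calls the areas biological replicates, but the labels tie no library to an animal and do not say whether a high and a low area shared a heart. The p-values therefore measure the spread between these libraries, and they are too small if areas of the same group shared an animal.

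Most mitochondrial proteins are made in the cytosol and cross the mitochondrial membranes unfolded. Chaperones in the matrix pull them in and fold them, and proteases in the matrix and the inner membrane degrade those that fail to fold or to find their partners. When unfolded proteins build up or respiration fails, cells can raise the transcription of these genes, a program known as the mitochondrial unfolded protein response, and heart muscle, which is dense in mitochondria, depends on this quality control.

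The Atf3 high libraries held 184872, 81117 and 210588 UMIs (replicates 1, 2 and 3), and the Atf3 low libraries held 171536, 125522 and 81917. The library Atf3 high replicate 2 stood apart from its label. For *Ddx3y* and *Eif2s3y*, both Y-linked, it had 16 UMIs, and for *Xist* 0, whereas the other 5 libraries held 0 or 1 UMIs of those Y-linked genes and 3 to 26 UMIs of *Xist*. The fits of the members, their summed level and the counts over gene lists are therefore also given without it. Levels are given as CPM, the count scaled to a fixed library total after normalization, and 1 UMI was worth 4.66 to 13.6 CPM on that scale. At 3 UMIs, a gene with a count of 0 could still stand at 14.0 CPM in Atf3 high replicate 3 and at 40.9 CPM in Atf3 low replicate 3, the ends of the range, counting error alone considered. The knocked-down gene *Ndufs6* gave 2, 0 and 3 UMIs in the Atf3 high libraries and 0 in each Atf3 low library, too few to test. *Atf3* mRNA gave 50, 7 and 25 UMIs in the Atf3 high libraries and 35, 0 and 8 in the Atf3 low libraries, so the mRNA overlapped between groups that had been chosen by the protein.

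The cardiomyocyte label was checked against marker genes. All 10 cardiomyocyte markers were detected in every library, and their summed level was 23226, 23679 and 43240 CPM in the Atf3 high libraries and 44623, 49054 and 58536 CPM in the Atf3 low libraries. All 10 had a lower estimate in Atf3 high (their median was -0.47 on the log2 scale), and *Myh6*, a myosin heavy chain, passed the test across all genes (log2 fold change -1.81, adjusted p = 0.00512). Without Atf3 high replicate 2, 9 of the 10 had a lower estimate (median -0.44) and *Myh6* did not pass (log2 fold change -1.72, edgeR adjusted p = 0.115). The most abundant of them was *Myl2*. RNA of other cells was present as well. The 8 fibroblast markers summed to 5213, 2788 and 1113 CPM in Atf3 high, against 2588, 1493 and 531 CPM in Atf3 low, led by *Col3a1*, and all 8 had a higher estimate in Atf3 high (median log2 fold change 1.03) with 0 past the test, and all 8 did without Atf3 high replicate 2 (median 1.18). *Tcf21*, which defines fibroblasts, was at 0 in Atf3 high replicate 2 and in Atf3 low replicates 2 and 3. The 8 endothelial markers, led by *Cdh5*, summed to 589, 543 and 638 CPM in Atf3 high, against 606, 467 and 313 CPM in Atf3 low. Of the 6 tested, 4 had a higher estimate, with and without Atf3 high replicate 2 (medians 0.34 and 0.35). The 7 mural cell markers, led by *Rgs5*, summed to 772, 338 and 810 CPM against 701, 534 and 490 CPM. Of these 7, 6 had a higher estimate in Atf3 high (median log2 fold change 0.72), with 0 past the test. Without Atf3 high replicate 2, 6 of the 7 were again higher (median 0.97). The 8 macrophage markers, led by *Lyz2*, summed to 361, 302 and 172 CPM against 243, 359 and 286 CPM. Of the 7 tested, 3 had a higher estimate, with and without Atf3 high replicate 2 (medians -0.081 and -0.19). *Cldn5*, an endothelial marker, was at 0 in each library except Atf3 low replicate 1, and *Adgre1*, a macrophage marker, was at 0 in each library numbered 2 or 3. Erythrocyte markers gave 0 to 19 UMIs per library, nearly all of *Hbb-bs*, and lymphocyte markers 0 to 2. Mitochondrially encoded genes took 17.1%, 21.2% and 16.9% of the UMIs in Atf3 high, against 21.9%, 21.9% and 22.6% in Atf3 low, lower in each Atf3 high library than in any Atf3 low library. The estimates of the 10 cardiomyocyte markers ran from -1.81 for *Myh6* to -0.061 for *Ttn*. Fewer cardiomyocytes in an area and less RNA per cardiomyocyte cannot be told apart in these libraries. Neither was separated from changes in single marker genes.

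The comparison asks whether the transcripts of this quality-control machinery differ with the Atf3 level of the area. None of the 10 genes passed the test. Of the 9 with enough UMIs to be tested by the quasi-likelihood test of edgeR, 0 were called at an adjusted p of 0.05, where 0.0913% of all 7665 genes tested were called, and 0 had an unadjusted p under 0.05, where 5.79% of all genes did. In the 17 alternative fits *Hspa9* had an unadjusted p under 0.05 in 8 and *Yme1l1* in 1. Across all genes 7 were called by edgeR and 12 by DESeq2, with 444 and 249 at an unadjusted p under 0.05, and DESeq2 called 0 of the 7 members to which it gave an adjusted p (*Clpp* and *Clpx* had none). The count of 7 depended on single libraries. Leaving out Atf3 low replicate 3 or either of replicates 1 and 2 of Atf3 high brought it to 1, leaving out Atf3 high replicate 3 brought it to 11, and leaving out Atf3 low replicate 1 brought it to 0, where 477 genes had an unadjusted p under 0.05. In each of these fits 0 of the 9 genes were called.

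By direction, 7 of the 9 had a higher estimate in Atf3 high and 2 a lower one, beside 55.2% of all genes with a higher estimate. Their median log2 fold change was 0.16, against 0.11 for all genes tested. The split rested on single libraries, since 5 of the 9 had a lower estimate without Atf3 high replicate 1 or without Atf3 low replicate 3, and 4 without Atf3 low replicate 2. Without Atf3 high replicate 2 the split stayed at 7 higher and 2 lower, and the median was 0.38, against 0.11 for all genes of that fit. Without Atf3 low replicate 1 the medians of the members and of all genes were 0.49 and 0.16. Without Atf3 high replicate 3 they were 0.30 and 0.045. The members lay below all genes in the other omissions. There the medians were -0.0096 and 0.028 without Atf3 high replicate 1 and 0.084 and 0.14 without Atf3 low replicate 2. They were -0.031 and 0.044 without Atf3 low replicate 3. With Atf3 high replicate 2 left out the log2 fold change was 0.47 for *Hspd1*, 0.18 for *Hspe1*, 0.50 for *Lonp1*, -0.0090 for *Clpp*, 0.21 for *Clpx*, 0.64 for *Afg3l2* and 0.38 for *Phb2*. The groups did not overlap for 2 of the 9, *Hspa9* and *Yme1l1*, where 11% of all genes tested did not overlap in either direction. Only *Hspa9* lay higher in each Atf3 high library, a pattern held by 7.07% of all genes.

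**Figure D1:**
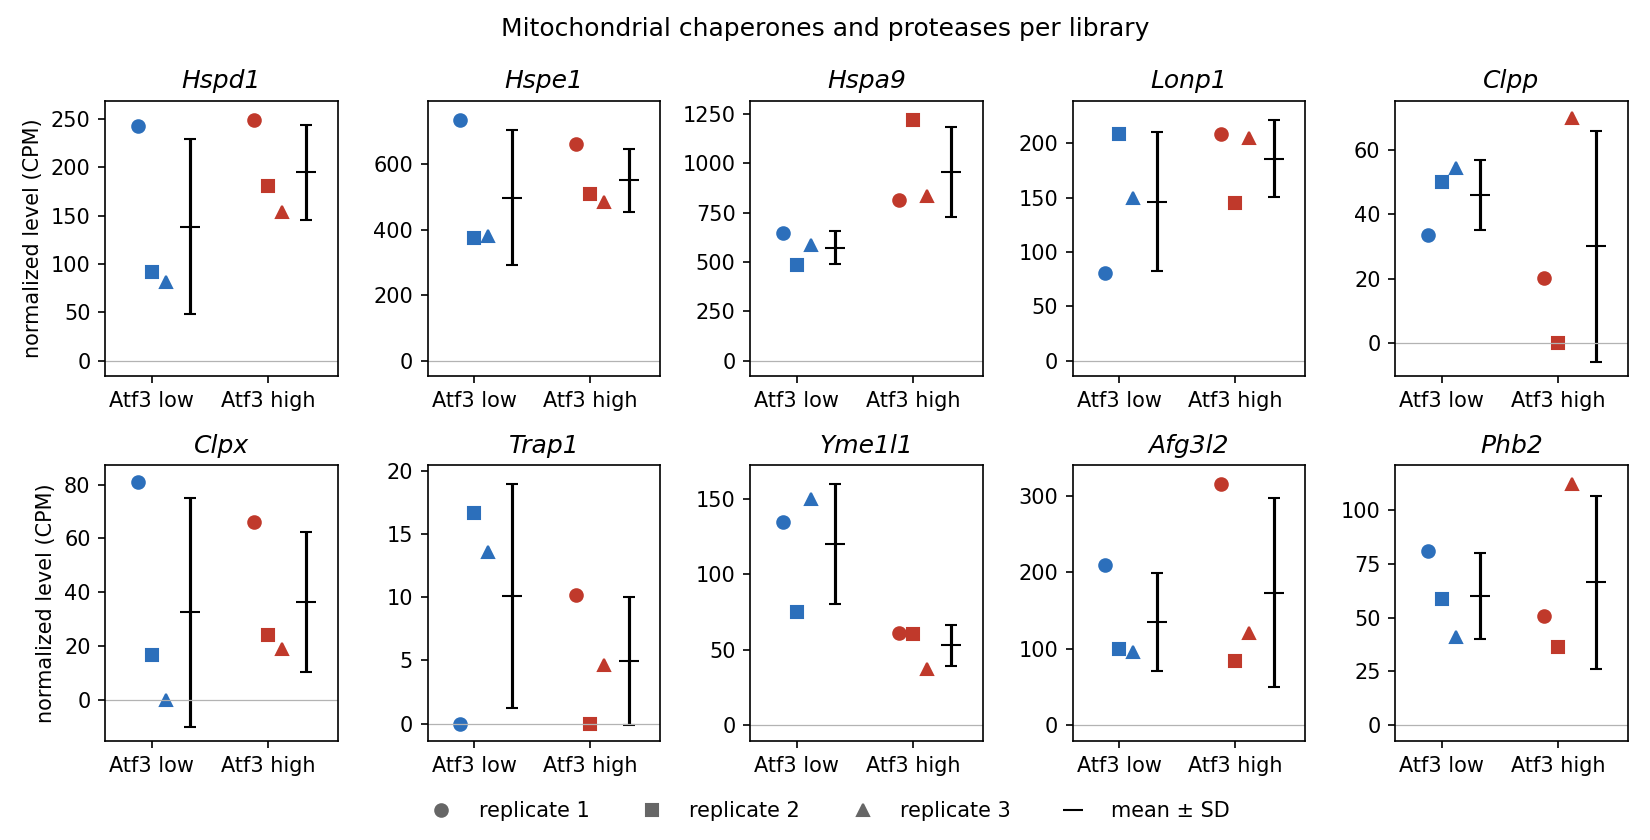
Normalized level in CPM (vertical axis, a separate scale for each gene) of the 10 mitochondrial chaperone and protease genes in the Atf3 low (blue) and Atf3 high (red) libraries, with symbols for replicates 1, 2 and 3 and a black mark for the mean ± SD of 3 libraries. For *Hspa9* the Atf3 high libraries, at 813 to 1219 CPM, lie above the Atf3 low libraries, for *Yme1l1* they lie below them, and for the other genes the groups overlap.

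*Hspd1* and *Hspe1* encode Hsp60 and its cofactor Hsp10, which together form the barrel-shaped chaperonin that folds proteins in the matrix. *Hspd1* stood at 249, 181 and 154 CPM in the Atf3 high libraries (49, 15 and 33 UMIs) and at 243, 91.8 and 81.7 CPM in the Atf3 low libraries (36, 11 and 6 UMIs). *Hspe1* stood at 661, 507 and 484 CPM in Atf3 high (130, 42 and 104 UMIs) and at 735, 375 and 381 CPM in Atf3 low (109, 45 and 28 UMIs). For both genes Atf3 low replicate 1 lay near or above the highest Atf3 high library while the other Atf3 low libraries lay under every Atf3 high library, so the groups overlapped through that single library. The log2 fold change was 0.44 for *Hspd1* (SE 0.52, edgeR adjusted p = 0.996). It was 0.14 for *Hspe1* (SE 0.40, edgeR adjusted p = 0.996). Without Atf3 low replicate 1 the estimate for *Hspd1* was 1.11, with an edgeR adjusted p of 0.727, and that for *Hspe1* was 0.49. The estimate for *Hspd1* was 0.16 without Atf3 low replicate 2, 0.17 without Atf3 low replicate 3 and 0.23 without Atf3 high replicate 1. Without Atf3 low replicate 1 the groups did not overlap for 5 of the 9 genes, *Hspd1*, *Hspe1*, *Hspa9*, *Clpx* and *Yme1l1*, where 22.7% of all genes tested on the same 5 libraries did not overlap. The omission of Atf3 low replicate 1 was singled out after the values were seen. *Hspe1* turned to a lower estimate without Atf3 high replicate 1 (-0.0096), Atf3 low replicate 2 (-0.077) or Atf3 low replicate 3 (-0.047).

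The chaperonin genes varied together. *Hspe1* ranked 6 of 1023 genes by how closely its level followed that of *Hspd1* over the 6 libraries (Pearson r 0.962 on log2 levels), a description of libraries that also differ in depth and in cell markers. *Hspd1* took 27.4%, 26.3% and 24.1% of the UMIs of the pair in the Atf3 high libraries and 24.8%, 19.6% and 17.6% in the Atf3 low libraries. Atf3 low replicate 1 lay inside the Atf3 high range, so this share overlapped too. Its exact 95% binomial interval ran from 6.76% to 34.5% in Atf3 low replicate 3, the library with 34 UMIs of the pair, which covers the shares of all the other libraries. *Hspe1* gave 2.87 ± 0.256 UMIs per *Hspd1* UMI in Atf3 high and 3.93 ± 0.831 in Atf3 low (mean ± SD, n = 3 libraries each).

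*Hspa9* encodes mortalin, the mitochondrial Hsp70 that drives import through the inner membrane and hands proteins on to the chaperonin. It was the most counted of the 10 genes, with 637 UMIs in all. Its level was 813, 1219 and 834 CPM in the Atf3 high libraries (160, 101 and 179 UMIs). In the Atf3 low libraries it was 647, 484 and 586 CPM (96, 58 and 43 UMIs). Every Atf3 high library lay above every Atf3 low library, by 166 CPM at the closest, and the highest was Atf3 high replicate 2, which held the Y-linked UMIs. The means were 955 ± 229 CPM in Atf3 high and 572 ± 82.4 CPM in Atf3 low (SD, n = 3 libraries each). The log2 fold change of 0.73 (SE 0.38, 95% interval -0.03 to 1.49) missed the threshold in edgeR, with an adjusted p of 0.908 and an unadjusted p of 0.0598. Over the 17 alternatives its unadjusted p ran from 0.0138 to 0.218 and its adjusted p was 0.596 or more. An exact two-sided permutation test over the 6 libraries gave p = 0.1, the smallest that 3 against 3 libraries allow. Without Atf3 high replicate 2 the log2 fold change was 0.51 (SE 0.41, edgeR adjusted p = 1.00), and the remaining libraries still did not overlap. The summed cardiomyocyte markers were lower and the mitochondrially encoded share was lower in each Atf3 high library than in any Atf3 low library, as given above, and their part in the *Hspa9* levels was not tested.

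The level of the 10 genes was also summed, with and without *Hspa9*. The 10 genes together gave 483, 187 and 438 UMIs in Atf3 high, against 333, 177 and 114 in Atf3 low. Their summed level was 2454, 2257 and 2040 CPM in Atf3 high, against 2244, 1477 and 1553 CPM in Atf3 low, or 2250 ± 207 against 1758 ± 423 CPM (SD, n = 3 libraries each), with Atf3 low replicate 1 inside the Atf3 high range. As a share of all UMIs, before TMM scaling, they took 0.261%, 0.231% and 0.208% in Atf3 high, against 0.194%, 0.141% and 0.139% in Atf3 low (means 0.233% ± 0.0267 and 0.158% ± 0.0312), and on that scale the groups did not overlap. Without *Hspa9* the normalized sums were 1641, 1038 and 1206 CPM against 1597, 993 and 967 CPM, and the ratio of the means moved from 1.28 to 1.09. With Atf3 high replicate 2 left out these ratios were 1.27 and 1.19. *Hspa9* took 33.1%, 54.0% and 40.9% of the members' UMIs in Atf3 high, against 28.8%, 32.8% and 37.7% in Atf3 low. That share was highest in Atf3 high replicate 2 (exact 95% binomial interval 46.6% to 61.3%), and Atf3 high replicate 1 lay within the Atf3 low range. The genes whose levels followed the summed level most closely over the 6 libraries, among 1019 genes with at least 100 UMIs, were *Serbp1* (Pearson r 0.979), *H2-K1* (0.962) and *Gm9703* (0.961).

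*Trap1* encodes the mitochondrial Hsp90. It gave 2, 0 and 1 UMIs in the Atf3 high libraries and 0, 2 and 1 in the Atf3 low libraries. With 6 UMIs in all it was the only one of the 10 genes under the minimum of 10 UMIs, so the main fit did not test it. With no filter on low counts all 10 genes were tested and 0 were called. The 6 UMIs bound a difference in *Trap1* only loosely.

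The soluble proteases of the matrix are Lonp1, which degrades oxidized and misfolded proteins, and ClpXP, in which the unfoldase Clpx feeds the peptidase Clpp. *Lonp1* stood at 208, 145 and 205 CPM in the Atf3 high libraries (41, 12 and 44 UMIs) and at 80.9, 209 and 150 CPM in the Atf3 low libraries (12, 25 and 11 UMIs). Its highest library was Atf3 low replicate 2 and its lowest Atf3 low replicate 1, so the Atf3 high libraries lay inside the Atf3 low range, and the log2 fold change was 0.37 (SE 0.51, edgeR adjusted p = 0.996). It was 0.013 without Atf3 low replicate 1 and 0.70 without Atf3 low replicate 2. *Clpp* gave 4, 0 and 15 UMIs in Atf3 high, against 5, 6 and 4 in Atf3 low. Atf3 high replicate 3 was its highest library and Atf3 high replicate 2 was at 0, a count that allows up to 36.2 CPM, and the log2 fold change was -0.43 with an SE of 0.93. It was -1.78 without Atf3 high replicate 3, where its groups did not overlap, as for 23.9% of all genes in that fit, and -0.0090 without Atf3 high replicate 2. *Clpx* gave 13, 2 and 4 UMIs in Atf3 high, against 12, 2 and 0 in Atf3 low. The libraries numbered 1 held most of its UMIs in both groups, and its log2 fold change of 0.05 (SE 0.98) was -0.73 without Atf3 high replicate 1, -0.32 without Atf3 low replicate 2, -0.45 without Atf3 low replicate 3 and 1.80 without Atf3 low replicate 1. With 34 UMIs of *Clpp* and 33 of *Clpx* in all, these counts bound either gene only loosely.

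In the inner membrane, Yme1l1 is the i-AAA protease that faces the intermembrane space and cleaves Opa1, the fusion protein of the inner membrane. *Yme1l1* stood at 61.0, 60.3 and 37.3 CPM in the Atf3 high libraries (12, 5 and 8 UMIs). In the Atf3 low libraries it stood at 135, 75.1 and 150 CPM (20, 9 and 11 UMIs). Every Atf3 high library lay under every Atf3 low library, the opposite of *Hspa9*, and Atf3 low replicate 2 came closest to the Atf3 high libraries, at a gap of 14.1 CPM. The means were 52.9 ± 13.5 CPM in Atf3 high and 120 ± 39.5 CPM in Atf3 low (SD, n = 3 libraries each). The log2 fold change of -1.18 (SE 0.65, 95% interval -2.48 to 0.12) did not pass in edgeR (adjusted p = 0.927, unadjusted p = 0.0743). The exact two-sided permutation test gave p = 0.1, again the smallest possible and fixed by the separation of the groups. Without Atf3 high replicate 2 the log2 fold change was -1.28 (SE 0.72, edgeR adjusted p = 1.00) and the groups still did not overlap. The values rest on 65 UMIs. The summed level of the cardiomyocyte markers was also lower in each Atf3 high library than in any Atf3 low library, and their part in the *Yme1l1* levels was not tested.

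Afg3l2 is the core subunit of the m-AAA protease, which faces the matrix and also matures a protein of the mitochondrial ribosome. *Afg3l2* stood at 315, 84.5 and 121 CPM in Atf3 high (62, 7 and 26 UMIs) and at 209, 100 and 95.3 CPM in Atf3 low (31, 12 and 7 UMIs). Atf3 high replicate 1 was far above the rest and Atf3 high replicate 2 was the lowest of the 6. The log2 fold change was 0.37 (SE 0.54, edgeR adjusted p = 0.996), and it was -0.38 without Atf3 high replicate 1. *Phb2* encodes a prohibitin, part of the ring-shaped scaffold that binds the m-AAA protease in the inner membrane. It gave 10, 3 and 24 UMIs in Atf3 high, against 12, 7 and 3 in Atf3 low, with overlapping groups and a log2 fold change of 0.16 (SE 0.71). Leaving out Atf3 high replicate 3 gave -0.46, and leaving out Atf3 low replicate 3 gave -0.031.

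**Figure D2:**
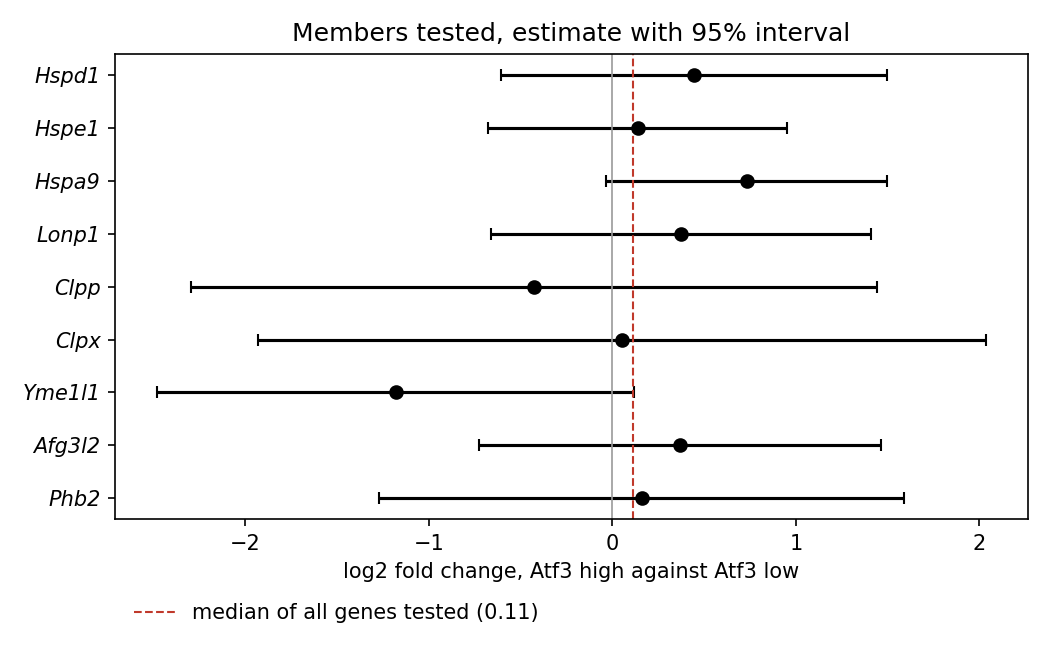
Estimated log2 fold change of Atf3 high against Atf3 low (horizontal axis) with its 95% interval for the 9 genes tested by edgeR, and the median of all genes tested as a dashed line at 0.11. Each interval includes 0, those of *Clpp* and *Clpx* are the widest, and *Hspa9* and *Yme1l1* lie farthest from the dashed line in opposite directions.

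In GRCm38, *Hspd1* lies on chromosome 1 from 55077835 to 55088243 on the minus strand and *Hspe1* from 55088132 to 55091307 on the plus strand, head to head, with annotated transcripts that overlap by 112 bases at their starts. Reads from those bases could belong to either gene where strand was not used in counting. The others lie apart: *Hspa9* (34937414 to 34954357) and *Afg3l2* (67404764 to 67449172) on chromosome 18, *Lonp1* (56614297 to 56626887) and *Clpp* (56990305 to 56996188) on chromosome 17, *Clpx* on chromosome 9 (65294260 to 65330658), *Trap1* on chromosome 16 (4039971 to 4077827), *Yme1l1* on chromosome 2 (23156369 to 23199260) and *Phb2* on chromosome 6 (124712336 to 124716950). The transcripts of *Hspd1*, *Hspe1*, *Hspa9*, *Clpx* and *Yme1l1* each have 1 near-identical copy elsewhere in the annotation (95% identity or more along 200 bases or more), and none of these copies was among the genes analysed here, so their counts are unknown. How reads that match a gene and its copy were assigned is not given in the sources used here, so the levels of these 5 genes are uncertain to that extent.

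The libraries numbered 1 shared a feature that did not follow the groups. *Hspd1*, *Hspe1*, *Clpx* and *Afg3l2*, 4 of the 9 genes tested, had their highest level of each group in the library numbered 1, where 14.4% of all genes tested did. This count was chosen after the values were seen. The summed fibroblast markers were also highest in those libraries within each group, at 5213 CPM in Atf3 high and 2588 CPM in Atf3 low. The summed cardiomyocyte markers were lowest there, at 23226 CPM in Atf3 high and 44623 CPM in Atf3 low. In Atf3 high this was close to the 23679 CPM of replicate 2. The part of either marker set in these levels was not tested.

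The other genes of mitochondrial protein handling gave no call either. Of 16 further chaperones, import motors and assembly factors, all tested, 6 had a higher and 10 a lower estimate (median log2 fold change -0.43), with 0 past the test. The split was again 6 and 10 without Atf3 high replicate 2 (median -0.33). *Dnaja3*, the Hsp40 partner that stimulates mortalin, had an estimate of 1.30 (SE 0.72), with 20, 7 and 22 UMIs in Atf3 high, against 8, 5 and 1 in Atf3 low. *Ttc19*, an assembly factor of complex III, had -1.07, and *Dnajc19*, a subunit of the import motor, had -1.02. Among 20 further symbols listed for proteases and related genes, 17 were in the table and 12 were tested. Of these, 5 had a higher and 7 a lower estimate (median -0.14), with 0 past the test. Without Atf3 high replicate 2, 11 were tested, 5 higher and 6 lower (median -0.038), again with 0 past the test. *Spg7*, the partner of Afg3l2 in the m-AAA protease, gave 15, 8 and 16 UMIs in Atf3 high, against 5, 8 and 1 in Atf3 low, with an estimate of 1.02 (SE 0.75). *Lonp2*, the peroxisomal relative of Lonp1, had 1.38, and *Afg1l*, an inner membrane ATPase, had -1.12.

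Regulators tied to the mitochondrial unfolded protein response were counted in the same way. Of 14 genes, 10 were tested, 6 with a higher and 4 with a lower estimate (median log2 fold change 0.09) and 0 past the test. The direction of the median turned without Atf3 high replicate 2 (-0.046), with 4 of 9 tested genes higher. *Atf5*, a transcription factor that can enter either mitochondria or the nucleus, gave 28, 23 and 17 UMIs in Atf3 high, against 3, 8 and 11 in Atf3 low. Its CPM overlapped between the groups, since Atf3 low replicate 3 at 150 CPM lay above Atf3 high replicate 3 at 79.2 CPM, and the estimate was 1.13 (SE 0.64, edgeR adjusted p = 0.964), or 0.58 without Atf3 high replicate 2. *Atf4*, the main factor of the integrated stress response, stood at 285, 205 and 210 CPM in Atf3 high, against 175, 200 and 123 CPM in Atf3 low. These groups did not overlap, by a margin of 4.95 CPM, and the estimate was 0.48 (SE 0.48). Without Atf3 high replicate 2 the Atf3 high libraries held at least 207 CPM and the Atf3 low libraries at most 199 CPM, with an estimate of 0.54. *Jun* had an estimate of -0.77.

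Chaperones of other compartments give the context. For the endoplasmic reticulum, 11 of 14 genes were tested, 8 with a higher and 3 with a lower estimate (median log2 fold change 0.43). *Creld2* had an estimate of 2.58 and *Dnajc3* of 1.96, while *Manf* had -1.74, each with 10 UMIs or fewer in every library. For the cytosol, 17 of 17 genes were tested, 12 higher and 5 lower (median 0.28), including *Hspa4l* at 2.11 (edgeR adjusted p = 0.666), *Hspb1* at 0.88 and *Bag3* at -0.57. In both lists 0 genes passed the test and 1 had an unadjusted p under 0.05, *Creld2* and *Hspa4l* respectively, where 5.79% of all genes did. Without Atf3 high replicate 2 the unadjusted edgeR p was 0.0648 for *Creld2*, no longer under 0.05, and 0.00970 for *Hspa4l*. Without Atf3 high replicate 2, 10 genes of the endoplasmic reticulum were tested, 8 higher and 2 lower (median 0.20). For the cytosol 16 were tested, 9 higher and 7 lower (median 0.058). Again 0 genes of either list passed the test.

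RefSeq promoters of GRCm38.p6, from 250 bases before to 50 after the gene start, were matched for 8 of the 10 genes, without *Hspa9* and *Afg3l2*. The Atf3 consensus TGACGTCA, searched on both strands, occurred in 1.79% of all 32851 promoters of this length and in that of *Trap1*. The match is shown because Atf3 protein defines the groups, with the consensus in capitals, on the minus strand at chr16:4077839-4077868.
Trap1: gtcgcgcgccaTGACGTCActgagccgccc
The AP-1 motif TGANTCA (7.81% of promoters) and the C/EBP-ATF element TTGCATCA (0.895%) occurred in 0 of the 8. The nuclear receptor motif AAGGTCA (4.72%) occurred in the promoters of *Hspd1*, *Hspe1* and *Trap1*. The motif TTCNNGAA, a pair of heat shock element units that reads alike on both strands, occurred in 8.52% of promoters and in those of *Hspd1*, *Hspe1* and *Clpp*. The promoters of *Hspd1* and *Hspe1* overlap and share both TTCNNGAA matches and the AAGGTCA match. The sequence is shown because these promoters overlap, as the *Hspe1* promoter on the plus strand at chr1:55087898-55088197, with the TTCNNGAA matches in capitals.
Hspe1: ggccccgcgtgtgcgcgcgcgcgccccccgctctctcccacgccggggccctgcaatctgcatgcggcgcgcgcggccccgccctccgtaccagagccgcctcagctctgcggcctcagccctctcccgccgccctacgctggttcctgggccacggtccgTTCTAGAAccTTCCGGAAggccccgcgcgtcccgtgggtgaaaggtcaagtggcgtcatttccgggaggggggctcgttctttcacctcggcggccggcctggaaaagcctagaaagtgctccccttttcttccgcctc
A match says only that these letters are in the window.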

How the data were processed

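The deposited table holds counts of UMIs per gene for the 6 libraries, made by the authors from photo-isolation chemistry and CEL-seq2 reads, with no normalization. The submitters' processing notes name GRCm38, HISAT2 (version 2.1.0), UMI-tools (version 1.0.0) and featureCounts (version 1.6.4). The annotation, the UMI length, the use of strand and the treatment of reads with several matches are not given in the sources used here. Libraries were grouped by their labels.

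The comparison used R (version 4.3.3) and edgeR (version 4.0.16). A total of 10 UMIs across libraries was required of a gene, which left 7665. TMM factors came from these genes, no covariate was fitted, and quasi-likelihood p-values (glmQLFTest) were adjusted by Benjamini-Hochberg over all of them. CPM were taken on the same TMM scale. The common biological coefficient of variation was 53.6%. Libraries of a group differed by more than counting noise (a chi-square of 3.55 to 5.07 per degree of freedom), so none was another library of its own group deposited again. This does not show that they came from separate animals. Exact permutation tests and likeness used log2(CPM + 4), and likeness compared genes with at least 100 UMIs. The fit was first tested on simulated data. Near-identical copies were found with BLAST+ (version 2.17.0) among GENCODE M21 transcripts.

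The genes and lists were chosen with earlier results of these data known. Genes named are the 10 members, the 3 of smallest p in each other list, the most abundant gene of each marker list, and genes that check the labels. Other genes named were chosen after their values were seen. Alternatives were library size, RLE and TMM over all genes for scaling, DESeq2 (version 1.42.0), limma-voom and limma-trend (limma version 3.58.1), filters on low counts, a block for the replicate number, thinned counts, and each library left out.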

Additional observations from a re-analysis of the deposited data

How the results depend on the processing

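None of the 9 tested genes was called in any of the 17 alternatives that gave it an adjusted p, which were all 17 except for *Phb2* (16), *Clpp* (15) and *Clpx* (14), and *Hspa9* (0.51 to 0.94) and *Yme1l1* (-1.48 to -0.96) kept the sign of their log2 fold change in all 17. Few UMIs stand behind *Clpx* (33), *Clpp* (34), *Phb2* (59) and *Yme1l1* (65). Across all genes 7 were called, against 12 with DESeq2, 3 with limma-trend, 3 among genes with at least 30 UMIs, 4 after thinning to 81117 UMIs per library and 0 to 11 with a library left out. The 0 came without Atf3 low replicate 1, where edgeR gave 477 genes an unadjusted p under 0.05. The number of members with a lower estimate was 1 with filterByExpr, which tested 6 of them, 4 after thinning, and 2 to 5 with a library left out. The number whose groups did not overlap was 2 to 5 of 9 with a library left out, where 18.8% to 23.9% of all genes did not overlap. Leaving out a library moved the median log2 fold change of the members from -0.031 to 0.49, that of *Hspe1* from -0.077 to 0.49, *Hspd1* from 0.16 to 1.11, *Lonp1* from 0.013 to 0.70, *Clpp* from -1.78 to -0.0090, *Clpx* from -0.73 to 1.80, *Afg3l2* from -0.38 to 0.82 and *Phb2* from -0.46 to 0.40. After thinning, *Hspe1* was at -0.037 and *Phb2* at -0.11. The cause of these moves was not tested. Scaling by library size alone moved the median of all genes from 0.11 to 0.31 and that of the members from 0.16 to 0.37. Counts summed with near-identical copies were not run, since no copy was among the genes analysed here.

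With the replicate number as a replicate block, 24 genes were called in place of 7, and 0 members. The numbers share no stated source. Deviations of same-numbered libraries correlated at 0.158, 0.029 and 0.149 over 3756 genes, and each library correlated best with its own number, a hint from the data and not from the design.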
